A study of Mus musculus with 55 samples.

Results

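The immediate early transcription factors are genes that cells switch on within minutes of a stimulus, before any new protein is made. In mouse lung they were followed through 10 genes, Fos, Fosb, Jun, Junb, Atf3, Egr1, Ier2, Nr4a1, Nr4a2 and Nr4a3. The genes were read from every probe set of the Affymetrix Mouse 430 2.0 array whose annotation carries only the symbol of 1 of them, which gave 18 probe sets of 45037. Values are robust multiarray average (RMA) values on the log2 scale, 1 array per mouse. Each gene is given by its brightest probe set (highest mean in the 52 mice), and the other 8 probe sets belong to Jun (1), Nr4a2 (5) and Nr4a3 (2). An array value depends on the probes as well as on the RNA, so levels of different genes were not ranked against each other.

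The study asked what low doses of arsenite do to the lung transcriptome. All mice were C57BL/6 males (C57BL/6J in the study's methods) aged 6 weeks that had 2 weeks on their diet before treatment, and the data hold 55 of them, of which 52 were used. On the AIN-76A diet (AIN), 5 mice received 10 ppb sodium arsenite in food, 4 received 10 ppb in drinking water, 3 received 100 ppb in drinking water and 5 were controls, all for 5 weeks. On the LRD-5001 diet (LRD), the same 4 treatments had 5, 4, 3 and 4 mice. A further set on the AIN-76A diet was taken 8 h after an intraperitoneal injection of 1 mg/kg dexamethasone (dex, a synthetic glucocorticoid; 5 mice), 1 mg/kg sodium arsenite (4 mice), both agents (5 mice) or saline (5 mice). Arrays were run in 5 batches of 11, a batch being the prefix of the raw array file's name.

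Quality differed between libraries, and this bears on all that follows. The 3 arrays set aside were arsenite injection E, AIN 100 ppb water B and LRD 10 ppb water C, whose correlations with the rest of their groups or whose signs of RNA quality stood apart; the values of the 52 others had SDs between 2.29 and 2.42. Lung markers were present throughout (mean of the club cell markers between 13.4 and 13.9, of the alveolar type II markers between 11.9 and 12.9). Some lungs also carried RNA of other tissues: the mean of the skeletal muscle markers was 10.4 in mouse A and that of the thymus markers 10.3 in mouse E of the AIN 10 ppb water group, against at most 8.2 and 3.94 in AIN controls. The muscle mean of 8.2 was that of AIN control mouse E, the other AIN controls having at most 4.91. The muscle mean was 10.8 in LRD 10 ppb food mouse B, and the thymus mean was 8.40 in saline mouse E. Each array is 1 mouse, so p-values measure the spread between the mice used. In whole lung, fewer cells of a type and less RNA per cell cannot be told apart.

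Fos, Fosb, Jun, Junb and Atf3 encode leucine zipper proteins that pair to form AP-1 and related dimers. Egr1 encodes a zinc finger protein, Ier2 a nuclear protein of early growth responses, and Nr4a1, Nr4a2 and Nr4a3 encode orphan nuclear receptors that act without a known physiological ligand. Their promoters are held ready by factors that signalling kinases phosphorylate, chiefly CREB on cAMP response elements (CRE) and the serum response factor with its partners, so their messages can rise soon after a stimulus. Many of these messages are also short-lived. In lung they answer stretch, growth factors and inflammation.

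The sequences before the start sites of 8 of the 10 genes were found in RefSeq (build GRCm38.p6). Shown here are the 250 bases before the start site of Junb and Nr4a1, the pair with the highest Pearson r over mice, of Fos, and of Nr4a2 and Nr4a3, which followed the others less closely. Fos lies at chr12:85473640-85473889 (plus strand), Junb at chr8:84978749-84978998 (minus strand), Nr4a1 at chr15:101266596-101266845 (plus strand), Nr4a2 at chr2:57124004-57124253 (minus strand) and Nr4a3 at chr4:48045055-48045304 (plus strand). Capitals mark the core of a CRE (TGACG, or CGTCA on the other strand), the Egr site GCGGGGGCG on either strand and the TATA box TATAAA on the gene's strand.
Fos: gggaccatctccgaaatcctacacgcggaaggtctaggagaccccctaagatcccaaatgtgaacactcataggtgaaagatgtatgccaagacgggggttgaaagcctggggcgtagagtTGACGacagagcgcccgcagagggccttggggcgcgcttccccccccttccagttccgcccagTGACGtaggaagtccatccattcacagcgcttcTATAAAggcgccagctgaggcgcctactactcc
Junb: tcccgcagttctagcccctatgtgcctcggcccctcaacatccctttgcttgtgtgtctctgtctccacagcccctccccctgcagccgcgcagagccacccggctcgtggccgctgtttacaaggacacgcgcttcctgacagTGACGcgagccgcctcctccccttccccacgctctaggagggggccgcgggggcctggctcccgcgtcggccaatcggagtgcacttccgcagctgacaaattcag
Nr4a1: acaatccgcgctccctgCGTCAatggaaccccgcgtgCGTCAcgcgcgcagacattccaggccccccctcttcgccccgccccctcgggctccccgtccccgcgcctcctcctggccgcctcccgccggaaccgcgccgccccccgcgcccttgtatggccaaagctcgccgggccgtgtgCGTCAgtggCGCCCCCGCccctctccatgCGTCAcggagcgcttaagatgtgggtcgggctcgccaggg
Nr4a2: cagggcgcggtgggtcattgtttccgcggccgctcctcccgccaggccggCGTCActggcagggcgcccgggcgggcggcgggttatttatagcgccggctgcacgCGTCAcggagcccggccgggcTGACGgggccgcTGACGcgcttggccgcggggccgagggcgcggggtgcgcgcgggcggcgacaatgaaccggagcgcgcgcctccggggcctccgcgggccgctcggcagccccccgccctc
Nr4a3: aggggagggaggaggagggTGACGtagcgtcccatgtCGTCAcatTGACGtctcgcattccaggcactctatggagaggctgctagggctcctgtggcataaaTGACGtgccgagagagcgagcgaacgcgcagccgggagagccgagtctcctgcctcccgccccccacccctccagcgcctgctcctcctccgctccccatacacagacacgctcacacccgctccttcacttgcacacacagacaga
The CRE core was found in 7 of the 8 members with a sequence and in 17.8% of all 32851 promoters of that length. Nr4a1, Nr4a2 and Nr4a3 each held 4 copies, as did 0.137% of all promoters (4 or more), while Fos held 2, Fosb, Junb and Atf3 held 1 each and Jun held 0. The Egr site was found in Fosb and Nr4a1 (2.57% of all promoters), and TATAAA in Fos (7.59%). No full CRE (TGACGTCA, 1.55% of all promoters), no AP-1 site TGANTCA (6.75%) and no CArG box (1.47%) lay in these windows of the 8 genes. A match describes letters and does not show that a factor binds.

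The first observation concerns the mice themselves: lungs of equally treated mice differed widely in these genes. Fosb had an SD within groups of 1.21 (log2, pooled over the 12 groups), larger than that of 99.8% of all probe sets. Dim probe sets are included in these shares (array medians 4.245 to 4.369). Fosb itself was dim in some mice, with a mean of 5.20 and a lowest value of 3.46. Nr4a1 (0.76), Egr1 (0.76), Fos (0.75) and Atf3 (0.74) exceeded 99.1%, 99.1%, 99% and 99% of them in that order. Jun was the least variable at 0.38, and even this exceeded 90.8%. In the dex group, for example, Fosb was 7.22, 4.59, 6.83, 6.22 and 8.18 in mice A, B, C, E and F. Group means of Fosb ran between 4.30 (arsenite injection) and 6.61 (dex injection), and those of Jun between 10.0 and 11.0.

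**Figure D1:**
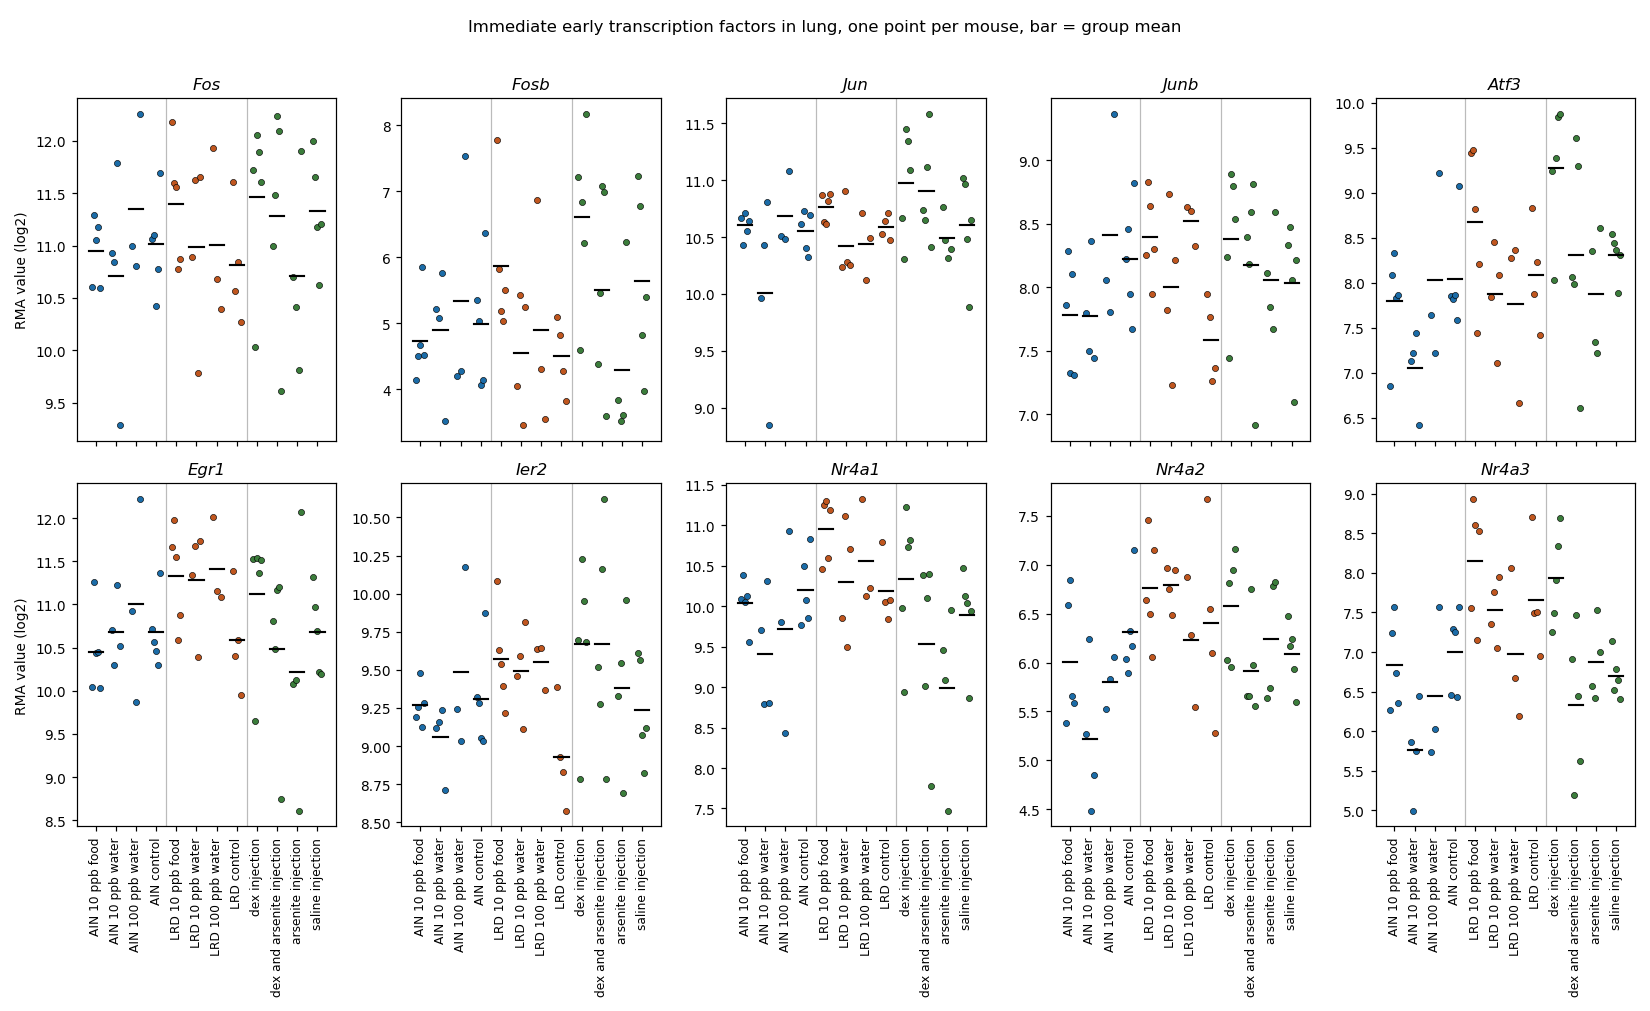
RMA values (log2, y axis) of the 10 genes in 52 mice, 1 point per mouse, over 12 groups (x axis; blue AIN, orange LRD, green injected mice), with a bar at each group mean. Points of 1 group often span 1 to 3 log2 units, and the groups overlap in nearly every panel.

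The spread was shared between the genes. With each value centred on its group mean, all 45 pairs of genes had a positive Pearson r over the 52 mice, with a median of 0.64 and a range of 0.092 to 0.872. For 33 of the pairs r exceeded 0.5. Of the 45 relations, 41 passed an adjusted p of 0.05 for r, and 41 for Spearman's rho (permutation test within groups, 100000 orders, two-sided, Benjamini-Hochberg over the 45). A single principal component held 67.0% of the variance of the 10 standardised genes and the next 13.6%. A lung that was high in one of these genes was thus usually high in the others of its set.

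The highest Pearson r was that of Junb and Nr4a1 (r = 0.872, rho = 0.856). Fos had similar values with Fosb, its paralogue (r = 0.869, rho = 0.889), with Egr1 (r = 0.869, rho = 0.897) and with Ier2 (r = 0.856, rho = 0.847), the first 2 of them above Junb and Nr4a1 by rho. For each of these 4 pairs the permutation p was 1e-05, the smallest the permutations can give, and the adjusted p was 1.87e-05 for r and 2.37e-05 for rho. Without the 2 mice farthest from the median of the first gene, r of the 4 pairs was 0.839, 0.862, 0.886 and 0.845. Within single array batches r of Fos and Egr1 lay between 0.785 and 0.956 and that of Junb and Nr4a1 between 0.556 and 0.929.

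Fos, Fosb, Egr1, Ier2, Junb, Nr4a1 and Atf3 thus formed a block in which every r was 0.649 or more. Jun, whose product pairs with Fos to form AP-1, followed at a distance, with r = 0.678 with Fos and 0.616 as its median over the other 9 genes. Its second probe set gave the same picture (r = 0.902 with the first). Nr4a2 and Nr4a3 stood apart from the block with medians of 0.34 and 0.501, yet correlated with each other (r = 0.629, rho = 0.614, permutation p 1e-05, adjusted p 1.87e-05 and 2.37e-05). Their r was 0.3 in the AIN mice, 0.847 in the LRD mice and 0.71 in the injected mice. For Nr4a2 the distance from the block depended on the probe set. With the mean of the other 9 genes its brightest had r = 0.402, 1447863_s_at 0.657, 1450749_a_at 0.511 and 1450750_a_at 0.509. Its probe sets 1433422_at and 1433423_at had -0.006 and -0.136, and the first Jun probe set had 0.585.

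The 4 pairs that did not pass were Jun with Nr4a2 (r = 0.092, adjusted permutation p = 0.594), Jun with Nr4a3 (r = 0.14, adjusted permutation p = 0.38), Nr4a1 with Nr4a2 (r = 0.174, adjusted permutation p = 0.246) and Junb with Nr4a2 (r = 0.236, adjusted permutation p = 0.0922). Centring on array batch as well as on group raised the last 2 to r = 0.605 and 0.617 and Jun with Nr4a2 to 0.427.

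**Figure D2:**
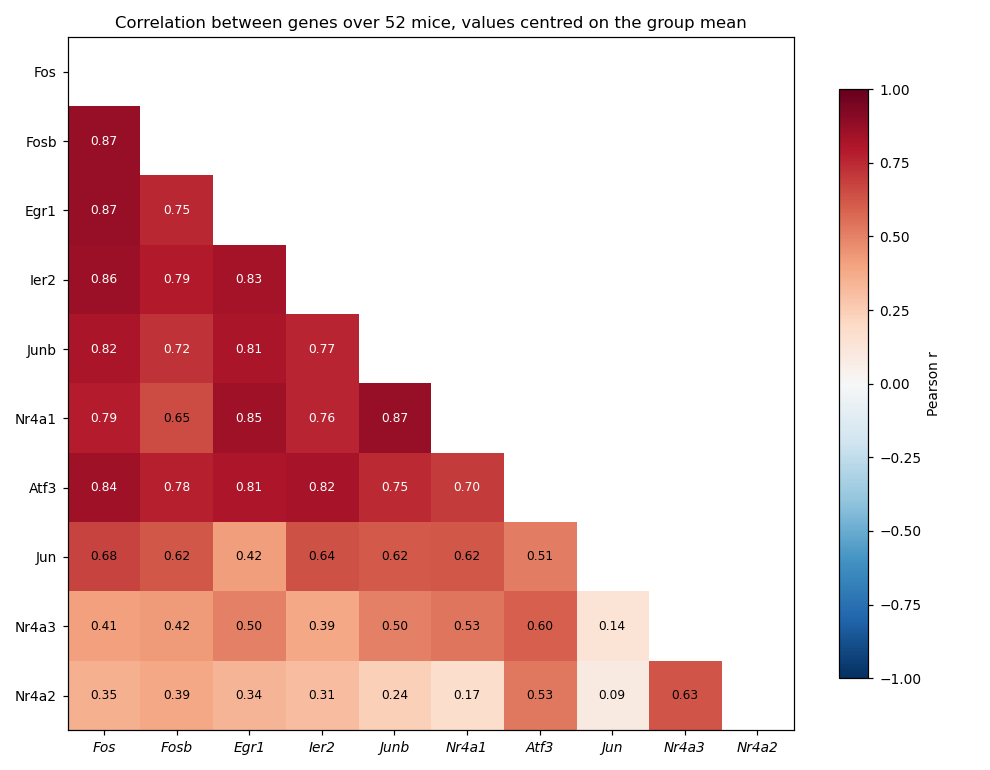
Pearson r between each pair of genes (rows and columns) over 52 mice, values centred on the group mean, coloured by r. The block from Fos to Atf3 holds values of 0.65 to 0.87, and the rows of Nr4a3 and Nr4a2 hold values of 0.09 to 0.63.

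**Figure D3:**
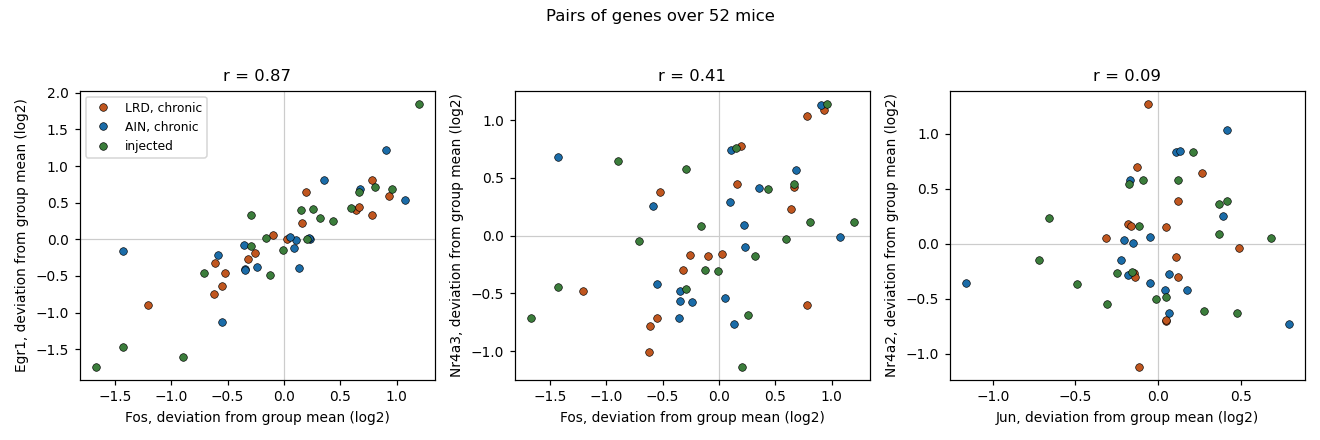
Deviation of each mouse from its group mean (log2, both axes) for Fos against Egr1, Fos against Nr4a3 and Jun against Nr4a2, with orange LRD, blue AIN and green injected mice. The points of Fos and Egr1 lie along a line (r = 0.87), those of Fos and Nr4a3 scatter more (r = 0.41), and those of Jun and Nr4a2 show little slope (r = 0.09).

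By set of mice, the median r over the pairs was 0.652 in the 17 AIN mice, 0.666 in the 16 LRD mice and 0.763 in the 19 injected mice, and 0.672 with group and batch both centred. Within the 5 batches taken 1 at a time, the median ran between 0.429 and 0.813. Each batch holds 10 or 11 of these mice, which leaves single values within a batch imprecise.

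Particular mice carried the extremes. With the 10 genes standardised and averaged, the lowest was mouse F of the dex and arsenite group, at -2.08 SD units from its group mean, followed by mouse B of the dex group at -1.70. Mouse D of the AIN 100 ppb water group was the highest at 1.65. In that mouse Fos was 12.3, Egr1 12.2 and Junb 9.37, against 11.0 and 10.8 for Fos, 10.9 and 9.87 for Egr1 and 8.06 and 7.81 for Junb in mice A and C of the same group.

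Other early response genes were among those that followed the same mice. Among 18183 other genes the 10 closest to the mean of the 10 members within groups were Ccn1 (r = 0.864), Zfp36 (0.845), Nfkbiz (0.83), Dusp1 (0.812), Btg2 (0.797), Apold1 (0.782), Kcne4 (0.779), Adamts1 (0.752), Egr2 (0.71) and Ppp1r15a (0.694). Ccn1 encodes a secreted matrix protein, Zfp36 an mRNA decay factor, Nfkbiz a nuclear IκB protein and Dusp1 a phosphatase of MAP kinases. The median r over all these genes was -0.001, and 20 of them (0.11%) exceeded 0.6, of which 10 were on a list of 32 other immediate early genes. Over the 12 group means the closest were Btg2 (r = 0.923), Csf2 (0.902), Ppp1r15a (0.895), Il6 (0.875) and Trib1 (0.867), a description over 12 points that share batches. Il6 had a mean of 3.89, under the log2 5 used here to call a probe set dim.

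The partners and upstream parts of the pathway were set beside the members in the same way. Of 14 AP-1 partners (other Fos, Jun, Maf and Atf genes) and 17 kinases and factors that act upstream (such as Srf, Creb1 and MAP kinases) 0 exceeded r = 0.6, and their median r values were 0.186 and 0.007. The mean of each list had r = 0.417 and 0.023 with the mean of the members. Among cell type lists, the mean of the alveolar type II markers had r = 0.446 with it (adjusted permutation p = 0.00658), the only such list to pass. That of the T cell markers had r = -0.297 and that of the thymus markers -0.299 (adjusted permutation p = 0.13 and 0.0877). Without the 2 mice farthest from the median these 3 r values were 0.44, -0.149 and -0.145. The 3′ to 5′ differences of the Gapdh and Actb control probe sets, a sign of RNA decay, had r = -0.011 and -0.215. The part of these measures in the shared spread was not tested.

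The diets gave the only difference of a member that passed the test across all probe sets, and it was in Nr4a3. On LRD, Nr4a3 was 7.56, 8.94, 8.61, 7.15 and 8.53 in the 5 mice with 10 ppb in food, against 6.26, 7.25, 7.57, 6.74 and 6.36 on AIN. With 10 ppb in water it was 7.35, 7.76, 7.05 and 7.95 on LRD and 5.86, 5.00, 5.75 and 6.44 on AIN, and here the diets did not overlap (2.75% of all probe sets had no overlap there). With 100 ppb in water it was 8.06, 6.68 and 6.19 on LRD and 5.73, 6.02 and 7.57 on AIN. In mice with no added arsenite it was 8.70, 7.49, 7.50 and 6.95 on LRD and 6.46, 7.29, 7.25, 6.43 and 7.57 on AIN. Of the 16 LRD mice 15 lay above the AIN median, and 7 lay above the highest AIN mouse.

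Averaged over the 4 treatments, Nr4a3 was higher on LRD by 1.07 ± 0.23 on the log2 scale (SE), or 2.1-fold (limma over 52 arrays, adjusted p = 0.0205, Benjamini-Hochberg over 45037 probe sets). In this comparison 69 probe sets (0.153%) passed, 64 of them higher on LRD (0.142%), and 1 of the 10 members was among them. Permuting diet within treatment for this gene alone gave p = 0.00047 (two-sided permutation test, 100000 orders). The differences by treatment were 1.32 for 10 ppb in food, 1.77 for 10 ppb in water, 0.54 for 100 ppb in water and 0.66 without added arsenite (exact permutation p = 0.0397, 0.0286, 0.5 and 0.183). The smallest exact p the 3 against 3 mice of the 100 ppb groups allow is 0.1. Within each of the 5 array batches the mean of the LRD mice was higher as well, by 0.49 to 2.00. A batch held 2 to 4 mice of each diet, and their treatments were not matched. The smallest difference was that of batch 5, with 2 LRD and 3 AIN mice.

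The call did not hold in every setting. It was lost when mouse A of the LRD control group (adjusted p = 0.0538), mouse C of the LRD 100 ppb group (0.0987) or mouse A or C of the AIN 100 ppb group (0.074 and 0.0703) was left out of the limma fit, and under array weights (0.124), while the difference stayed between 0.94 and 1.21. The other 2 Nr4a3 probe sets did not show it: 1421080_at, with a mean of 5.10, differed by 0.09 and 1421079_at, with a mean of 3.20, by -0.02 (limma adjusted p = 1.0 for both), and neither followed the brightest probe set over mice (r = -0.095 and -0.096).

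Nr4a2 and Nr4a1 leaned the same way without passing. Nr4a2 averaged 6.58 ± 0.64 on LRD (SD, n = 16) and 5.88 ± 0.68 on AIN (SD, n = 17), a difference of 0.71 ± 0.20 (SE; limma, unadjusted p = 0.000877, adjusted p = 0.306). Nr4a1 averaged 10.5 ± 0.60 on LRD and 9.88 ± 0.69 on AIN, a difference of 0.66 ± 0.26 (SE; limma, unadjusted p = 0.014, adjusted p = 1.0). For Nr4a2 with 10 ppb in water the diets did not overlap, at 6.97, 6.75, 6.48 and 6.95 on LRD and 5.27, 6.24, 4.49 and 4.85 on AIN (2.75% of all probe sets had no overlap there). As for Nr4a3, these AIN values include mice A and E (here 5.27 and 4.85), whose lungs carried muscle or thymus RNA. Nr4a1 with 10 ppb in food did not overlap either, at 10.5, 11.3, 11.3, 10.6 and 11.2 on LRD and 10.1, 10.4, 10.0, 10.1 and 9.56 on AIN (exact permutation p = 0.00794, where 0.659% of all probe sets had no overlap). The other 7 members differed by 0.05 (Fos), -0.04 (Fosb), 0.08 (Junb), 0.09 (Jun), 0.11 (Ier2), 0.38 (Atf3) and 0.45 (Egr1). In all, 3 of 10 members had an unadjusted p under 0.05, all higher on LRD, against 2.66% of all probe sets.

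**Figure D4:**
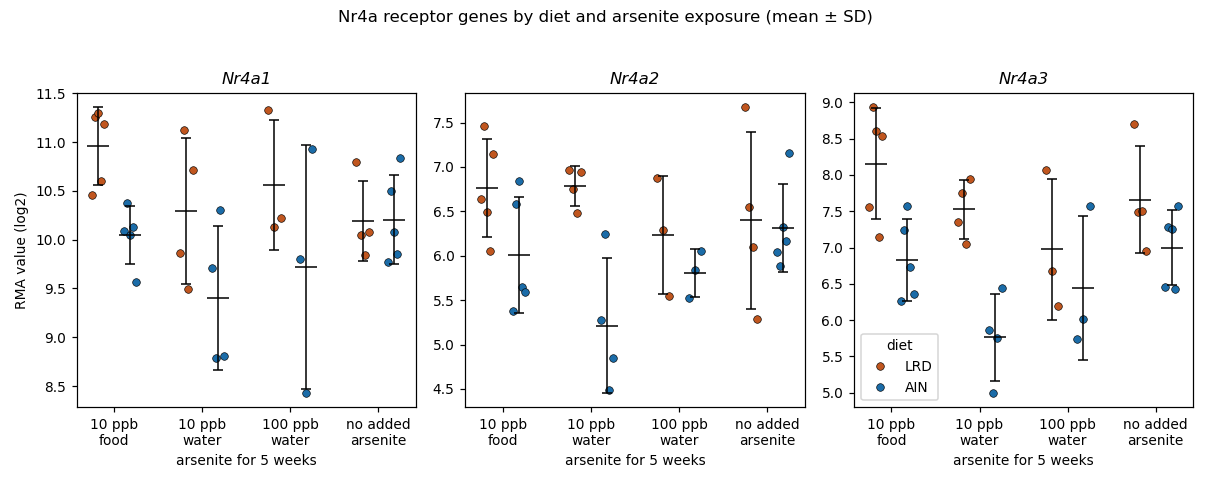
RMA values (log2, y axis) of Nr4a1, Nr4a2 and Nr4a3 by arsenite exposure (x axis) and diet (orange LRD, blue AIN), 1 point per mouse, with the mean and SD of each group. Nr4a3 means are higher on LRD in all 4 treatments, by 0.54 to 1.77.

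Genes of the circadian clock also differed between the diets, and their values are given beside those of Nr4a3. Of 10 clock genes, a list chosen after seeing the data, 4 were higher on LRD (Dbp by 1.22, adjusted p = 0.000545 in limma) and 2 lower (Arntl by -0.87, adjusted p = 2.39e-05 in limma). Of all probe sets 0.153% passed in this comparison, and 0.142% were higher on LRD. Within groups, over the 52 mice, r of Nr4a3 with the 10 clock genes lay between -0.332 (Tef) and 0.315 (Per1), and was -0.144 with Dbp and 0.104 with Arntl. Centring on the group removes differences between groups, so these r values cannot speak to such differences. With 10 ppb in water on AIN, each of the 10 clock genes differed from controls in the direction opposite to LRD against AIN. Per1 differed by -0.96, Dbp by -0.54 and Arntl by 0.34, and the smallest differences were -0.08 (Nr1d1) and 0.11 (Npas2). Nr4a3 was likewise opposite at -1.24. Both comparisons share AIN mice. Whether the clock genes moved together was not tested, so their signs are not counted as separate results. The time of day at which lungs were taken is not given in the sources used here, and its part in the difference of Nr4a3 was not tested.

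In none of the 6 comparisons of chronic arsenite with the control of the same diet did a member pass (limma, 0 of 10 members in each, where 0 of 45037 probe sets passed, 0.0%). At an unadjusted p under 0.05 there were 0 members for 100 ppb in water on AIN, 10 ppb in food on AIN and 10 ppb in water on LRD, where 2.08%, 2.28% and 3.45% of probe sets were under it. Of the 12 groups, AIN mice with 10 ppb in water had the lowest mean of Jun, Atf3, Nr4a2 and Nr4a3, and not of the other 6 members. In these mice Nr4a3 (values above) averaged 5.76 ± 0.59 (SD, n = 4) against 7.00 ± 0.52 in AIN controls (n = 5), a difference of -1.24 ± 0.43 (SE; limma, unadjusted p = 0.00575, adjusted p = 0.202). Nr4a2 averaged 5.21 ± 0.76, with mice at 5.27, 6.24, 4.49 and 4.85, against 6.32 ± 0.50 in controls, with mice at 6.04, 5.89, 6.32, 6.17 and 7.16. Its difference was -1.10 ± 0.38 (SE; limma, adjusted p = 0.202), and without mouse C, the highest, it was -1.45 and passed (adjusted p = 0.0219), in a fit where 2945 of 45037 probe sets (6.54%) passed. With all mice of the main fit, the other Nr4a3 probe sets, 1421080_at and 1421079_at, differed by 0.20 and -0.01. Those of Nr4a2 differed by 0.24 (1433422_at), -0.02 (1433423_at), -0.745 (1447863_s_at), -0.04 (1450749_a_at) and -0.60 (1450750_a_at).

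Atf3, a repressor of inflammatory genes, was 7.13, 7.22, 7.44 and 6.42 with 10 ppb in water on AIN and 7.85, 7.83, 7.87, 7.58 and 9.07 in the controls. These groups did not overlap, as was true of 1.56% of all probe sets. Its difference was -0.99 ± 0.48 (SE; limma, unadjusted p = 0.0439, adjusted p = 0.347). Jun differed by -0.54, with mouse E at 8.85 and the other 3 between 9.96 and 10.8. In all, 4 of 10 members had an unadjusted p under 0.05, all lower, against 8.06% of all probe sets lower at that level. The median change of the 10 members was -0.50 and that of all probe sets 0.00. Mice A and E are those whose lungs carried thymus, T cell, fat or muscle RNA. Without them only mice C and D of the treated group remained, and AIN control mouse E, with a skeletal muscle mean of 8.20, stayed in. Nr4a3 then differed by -1.63, Nr4a2 by -0.95 and Atf3 by -0.71, while Jun turned to 0.06 (limma, adjusted p = 0.57, 0.772, 0.892 and 0.988).

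The rank product, the method of the study, multiplies the ranks of fold changes between single arrays and is not scaled by the spread of a gene. A probe set was listed where its pfp, the estimated share of false positives among those ranked as high, was under 0.05, whereas the study set its threshold on a p-value. For 10 ppb in water on AIN it listed 4 members as lower, Nr4a1, Nr4a2, Nr4a3 and Atf3, among 183 probe sets (0.406%). With 10 ppb in food on LRD it listed 4 as higher, Fosb, Junb, Egr1 and Nr4a1, among 47 probe sets (0.104%). It listed none of the 10 in the other 4 chronic comparisons with a control. These members are among the probe sets with the widest spread between equally treated mice.

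On LRD with 10 ppb in food all 10 differences from the controls were positive, with a median of 0.62 against 0.01 for all probe sets. The members rose and fell together over mice, so counts of their signs are not counts of separate results. With 10 ppb in water 7 were positive and 3 negative (median 0.14), and with 100 ppb in water 6 were positive and 4 negative (median 0.28), Nr4a3 among these at -0.68. Junb was 8.26, 8.83, 8.64, 7.95 and 8.30 with 10 ppb in food against 7.94, 7.76, 7.27 and 7.37 in LRD controls, with no overlap by a margin under 0.01 (0.81% of all probe sets had none). The difference was 0.81 ± 0.34 (SE; limma, unadjusted p = 0.02, adjusted p = 1.0). Junb with 100 ppb in water was 8.63, 8.60 and 8.32, again above every control (4.55% of all probe sets had no overlap; 1 of 10 members had an unadjusted p under 0.05, against 1.78% of probe sets higher at that level), by 0.93 ± 0.38 (SE; limma, adjusted p = 1.0). With food, 2 of 10 members (Junb and Ier2) had an unadjusted p under 0.05, both higher, against 1.36% of probe sets. Ier2 differed by 0.64 with food and 0.62 with 100 ppb in water. Fosb differed by 1.36 with food and had a limma adjusted p of 1.0. The LRD controls were low in Junb, at 7.59 ± 0.32 (SD, n = 4) against 8.22 ± 0.45 in AIN controls (n = 5), and Junb was the 1 member that the rank product listed as lower between those controls (0.315% of probe sets). In limma 0 members passed there (6 probe sets, 0.0133%), and 0 had an unadjusted p under 0.05 (4.07% of probe sets did).

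Whether arsenite acted differently by diet was tested as the AIN effect minus the LRD effect. For 10 ppb in water all 10 members had a negative value, Nr4a2 at -1.49 and Nr4a3 at -1.11 among them, and 2 of 10 (Nr4a2 and Ier2) had an unadjusted p under 0.05, against 6.48% of probe sets lower at that level. These are values of the brightest probe sets. The other Nr4a3 probe sets, 1421080_at and 1421079_at, gave 0.62 and -0.08. Those of Nr4a2 gave 0.59 (1433422_at), -0.09 (1433423_at), -0.635 (1447863_s_at), -0.008 (1450749_a_at) and -0.75 (1450750_a_at). For 10 ppb in food all 10 members were negative, Junb at -1.26, the only one with an unadjusted p under 0.05 (1.04% of probe sets were lower at that level). The tests for water and food use the same control mice of each diet. The members also rose and fell together over mice, so these signs are not separate results. For 100 ppb in water 0 members had an unadjusted p under 0.05 (2.47% of probe sets did). None passed in limma after adjustment (0 of 45037 probe sets in each of the 3 tests, 0.0%).

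**Figure D5:**
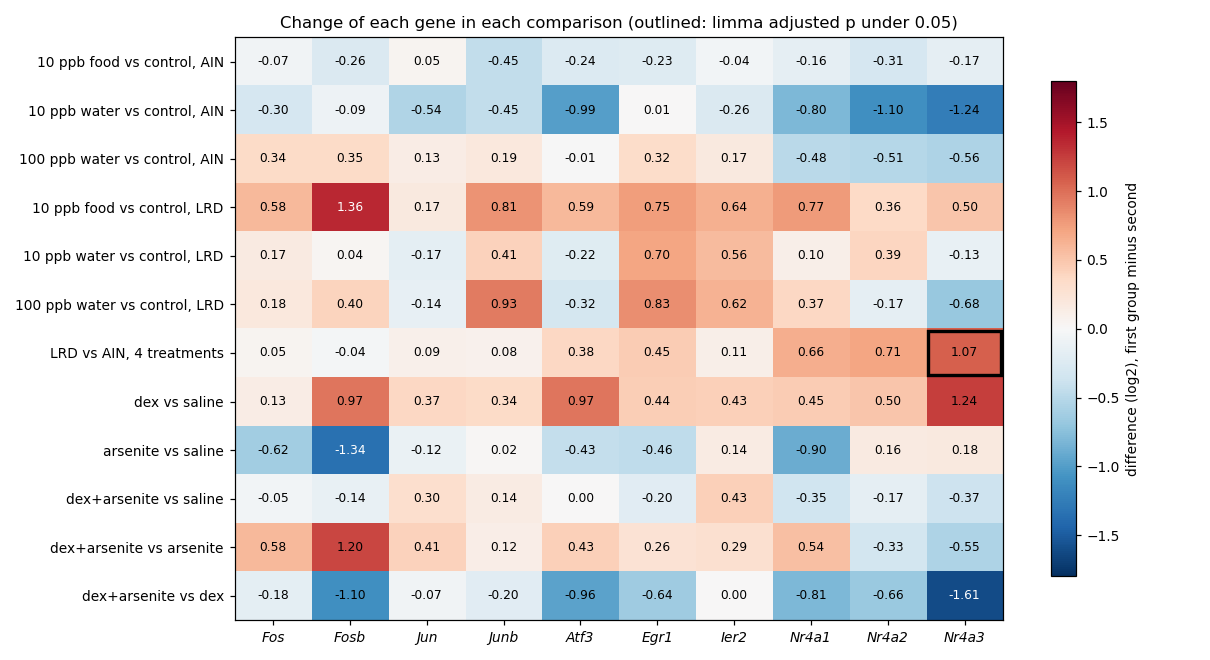
Difference on the log2 scale (colour and printed value, first group minus second) of each of the 10 genes (columns) in 12 comparisons (rows), with an outline where the limma adjusted p is under 0.05. The outlined cell is Nr4a3 in LRD against AIN (1.07), and larger values without an outline, such as Nr4a3 in dex and arsenite against dex (-1.61), did not pass.

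The injections were set against each other next; comparisons with saline share the 5 saline mice. At 8 h after dex all 10 members lay above saline, with a median difference of 0.45 against 0.00 for all probe sets. Since the members rose and fell together over mice, these signs are not independent. Saline mouse E, in whose lung the means of the thymus, T cell and fat markers were 8.40, 8.62 and 9.84, had the lowest member mean of its group (7.99). Without it 9 members lay above saline, with a median of 0.33, Fosb differing by 0.55 and Fos by -0.05 (limma, adjusted p = 0.928 and 0.994). Nr4a3 was 7.26, 7.50, 7.91, 8.34 and 8.70 after dex against 7.14, 6.52, 6.78, 6.65 and 6.40 after saline, and the groups did not overlap (2.14% of all probe sets had none). The difference was 1.24 ± 0.40 (SE; limma, unadjusted p = 0.00349, adjusted p = 0.156; exact permutation p = 0.00794, the smallest that 5 against 5 mice allow). It passed in limma under array weights alone (adjusted p = 0.0409), where 1515 probe sets (3.36%) passed, and was 1.23 without saline mouse E (adjusted p = 0.241). Atf3 was 9.24, 8.04, 9.39, 9.85 and 9.88 after dex against 8.55, 8.45, 8.37, 7.88 and 8.31 after saline, 4 of 5 mice lying above every saline mouse, a difference of 0.97 ± 0.45 (SE; limma, adjusted p = 0.518). In this comparison 515 probe sets (1.14%) passed and 0 members did; 2 of 10 members had an unadjusted p under 0.05, both higher, against 3.88% of all probe sets. The rank product listed Fosb, Nr4a3 and Atf3 as higher, among 418 probe sets (0.928%).

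Other early response genes did pass after dex. Of 32 on the list 3 rose and 0 fell, namely Ier3 by 1.13 (adjusted p = 0.01), Gadd45b by 0.63 (0.0392) and Dusp4 by 0.49 (0.046, limma), which encode a survival factor, a stress response protein and a MAP kinase phosphatase. Of 15 glucocorticoid targets, among them Fkbp5, Tsc22d3 and Per1, 0 passed in limma in dex against saline, and 0 had an unadjusted p under 0.05, with a median change of -0.04. The same list had a median of 0.55 in saline mice against uninjected AIN controls, with 0 passing and 5 higher at an unadjusted p under 0.05, where 1.61% of all probe sets were higher. The AP-1 partners (14), the Egr and Nab genes (5) and the upstream kinases and factors (17) had 0 that passed in any comparison.

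Mouse B of the dex group was the lowest of the 5 in every member but Nr4a2 and Nr4a3. Fos was 10.0 in it against 11.6 to 12.1 in the other 4, and Egr1 was 9.64 against 11.4 to 11.5. Nr4a3 in the same lung was 7.50, within the range of the other 4.

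After arsenite injection no member passed in limma (0 of 45037 probe sets passed, 0.0%; 0 members had an unadjusted p under 0.05, where 6.24% of all probe sets did). Fosb was 3.83, 3.52, 3.61 and 6.23 after arsenite against 7.23, 6.78, 4.82, 3.97 and 5.40 after saline, a difference of -1.34 ± 0.78 (SE; limma, adjusted p = 0.838), and mouse F alone of the arsenite group was high. Nr4a1 was 9.46, 9.09, 7.47 and 9.95 after arsenite against 10.5, 10.1, 10.0, 8.87 and 9.94 after saline, a difference of -0.90 ± 0.49 (SE; limma, adjusted p = 0.826). The rank product listed Fos, Fosb, Egr1 and Nr4a1 as lower, among 251 probe sets (0.557%).

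With both agents Nr4a3 lay below its level with dex alone. It was 6.91, 5.20, 7.47, 6.45 and 5.62 after dex and arsenite, against 7.26, 7.50, 7.91, 8.34 and 8.70 after dex alone, so that 4 of 5 mice lay below every dex mouse. The difference was -1.61 ± 0.40 (SE; limma, unadjusted p = 0.000231, adjusted p = 1.0; exact permutation p = 0.0159), and it was negative in each of the 4 batches that held both groups, between -3.33 and -0.03. The other Nr4a3 probe sets, 1421080_at and 1421079_at, differed by -0.12 and 0.14 here and by -0.06 and -0.05 in dex against saline. The test of the interaction itself gave -1.79 ± 0.59 (SE; limma, unadjusted p = 0.00378, adjusted p = 1.0), where 1 member had an unadjusted p under 0.05 against 1.79% of probe sets lower at that level. In dex and arsenite against dex, 2 of 10 members, Nr4a3 and Atf3, had an unadjusted p under 0.05, both lower, against 1.16% of all probe sets, and 0 of 45037 probe sets passed (0.0%).

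The rank product listed 6 members as lower with both agents than with dex alone (Fosb, Egr1, Nr4a1, Nr4a2, Nr4a3 and Atf3, among 186 probe sets, 0.413%) and 5 as higher than with arsenite alone (Fos, Fosb, Egr1, Nr4a1 and Atf3, among 597, 1.33%). In limma 0 members passed in dex and arsenite against arsenite, where 687 probe sets (1.53%) did, nor against saline, where 567 (1.26%) did. At an unadjusted p under 0.05 there were 0 members in both (10.2% and 9.48% of probe sets), and the rank product listed 0 members against saline. With saline as the shared control, both agents together gave a member median of -0.09, against 0.45 for dex and -0.27 for arsenite. Of the 10 heat shock genes, a class that arsenite is known to induce, 2 were lower with both agents than with arsenite alone, Hsph1 by -1.37 (adjusted p = 0.00873) and Dnaja1 by -0.86 (0.0425, limma).

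No member passed for the injection itself. Saline mice against uninjected AIN controls had 0 members passing (limma; 1 probe set of 45037, 0.00222%; 0 members had an unadjusted p under 0.05, where 4.09% of probe sets did), with a member median of -0.04. Fosb was the widest at 0.65, with saline mice at 3.97 to 7.23 and AIN controls at 4.07 to 6.36, and was the 1 member that the rank product listed as higher (0.389% of probe sets).

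Nr4a2 shows how far the choice of probe set matters. Its brightest probe set, 1455034_at, correlated within groups with 1450750_a_at (r = 0.788), less with 1447863_s_at (0.426) and 1450749_a_at (0.221), and not with 1433422_at (-0.124) and 1433423_at (-0.036). In LRD against AIN the first 4 differed by 0.71, 0.52, 0.42 and 0.16, and the other 2 by -0.07 and 0.01.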

How the data were processed

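Lung RNA of single mice was hybridised to Affymetrix Mouse 430 2.0 arrays. The authors deposited 1 table of log2 expression values made with RMA; which arrays were normalized together, and the RMA version, are not given in the sources used here. Of 45101 probe sets 64 controls were left out. Genes were named from the platform annotation where a probe set carries 1 symbol (34945 probe sets). Mice were grouped by their labels, and the 3 arrays set aside entered only 1 alternative. The 12 groups were fitted in 1 model with limma 3.58.1 (R 4.3.3; lmFit, contrasts, eBayes), p-values were adjusted over 45037 probe sets, and the threshold was 0.05. The fit was tested on simulated data. Correlations, exact tests and the rank product (100 random orders, pfp under 0.05) were computed in Python 3.11.15 with numpy 2.4.6. The number of arrays limits the precision.

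The members and gene lists were chosen with earlier results of these data known. Genes named beside the members were, per list, at most 4 with the largest change, passing ones first, and the 10 and 5 most alike; the clock list was added after seeing the data. Replicate letters were not used to pair mice: deviations of 206 pairs with the same letter had a median correlation of 0.019, those of 239 pairs of the same batch 0.24. Alternatives were all 55 arrays, smaller models, batch or letter as a block, quantile or median scaling, a filter on dim probe sets (over log2 5 in 4 arrays), array weights, a trended and robust fit, the rank product, other probe sets and leaving out each mouse.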

Additional observations from a re-analysis of the deposited data

Results flagged for a closer look

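In groups of 4 or 5 mice, a mouse that stood apart from the others was looked for in each gene by Dixon's gap test, which flags about 1 in 20 groups by chance. Of 100 groups and genes tested, 5 were flagged (5%). Fos in dex mouse B was 10.0 (10.033), with the other 4 between 11.6 and 12.1, and Egr1 in the same mouse was 9.64 (9.644), with the others between 11.4 and 11.5. Fosb in arsenite injection mouse F was 6.23 (6.232), with the other 3 between 3.52 and 3.83. Jun in LRD 10 ppb water mouse B was 10.9 (10.907), with the others between 10.2 and 10.3. Atf3 in AIN control mouse F was 9.07 (9.072), with the others between 7.58 and 7.87. Over the 10 genes, the flagged ones included, these mice lay -1.70, 1.28, 0.82 and 1.17 SD units from their group means (dex B, arsenite F, LRD 10 ppb water B and AIN control F). The flagged genes enter that mean and the members correlate, so it is not a separate sign.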

How the results depend on the processing

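Of the alternatives run, the higher Nr4a3 on LRD kept its direction in the 10 settings and the 33 fits without 1 mouse that used the brightest probe set (0.94 to 1.21), and was lost under array weights (0.98, 0 members called) and without 1 of 4 mice named above. Its other probe sets gave -0.021 and 0.09. With the letter of the mouse as a replicate block it was 1.12 (adjusted p = 0.0195 in limma); letters do not pair mice, and the replicate block changed no call of a member. The rank product called 4 members for 10 ppb in water on AIN, 4 for 10 ppb in food on LRD, 3 for dex, 4 for arsenite, 5 for both agents against arsenite, 6 against dex, and 1 each for saline and for LRD control against AIN control. Array weights called 1 member for dex (Nr4a3, 1.38). Leaving out 1 mouse gave 0 to 1 members for 10 ppb in water on AIN and for LRD against AIN. The cause was not tested.

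Counts of all probe sets depended more on the setting. Against saline, dex called 515, and 47 with all 55 arrays, 282 in a model of the injections alone, 1515 with array weights and 239 to 579 without 1 mouse (239 without saline F, 260 without dex E). Both agents called 567, and 66, 340, 987 (batch block), 1414 and 287 to 635 (287 without saline F, 332 without saline E, 336 without dex and arsenite E). Against arsenite they called 687, and 243, 280, 1062, 1185 and 266 to 819 (266 without arsenite C, 413 without arsenite F, 420 without dex and arsenite E). Arsenite called 0, and 2 with quantile scaling, 1 with median centring, 1 without dim probe sets, 2 with array weights and 0 to 9 without 1 mouse (9 without arsenite B). For 10 ppb in water on AIN the count was 0, and 4 with a batch block and 0 to 2945 without 1 mouse (2945 without C, 814 without D). The same effect against LRD gave 0 to 583 (583 without C). Saline against AIN control called 1, and 0 with all 55 arrays or quantile scaling, 6 with array weights and 0 to 1 without 1 mouse. LRD control against AIN control called 6, and 10 with a batch block and 21 with array weights. LRD against AIN called 69, and 35 with all 55 arrays. The median correlation between members was 0.813 in batch 3 and 0.429 in batch 4. Leaving out AIN 10 ppb water mice A and E was chosen after seeing the data.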
